A study of Mus musculus with 816 samples.

Results

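The cultures described here are primary microglia from neonatal mice, obtained from a commercial supplier, that were given extracellular ATP alone at 1000 uM for 24 h. They were chosen by their labels (ATP as the only treatment, a time of 24 h), and 9 cultures met this rule of 816 samples in the series. They were compared with the 40 cultures labelled as untreated and harvested at 24 h. All cultures were grown in 96-well plates and sequenced as bulk RNA. The panel to which they belong applied stimuli singly and in combination to induce varied transcriptional states of microglia. Apart from the stimulus, both groups shared the same culture medium and protocol, and because the cultures are bulk, fewer expressing cells and less RNA per cell cannot be told apart.

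ATP is released by damaged or active cells and acts on microglia through ligand-gated P2X channels, such as P2RX4 and the low-affinity receptor P2RX7, and through G protein-coupled P2Y receptors. Surface ectonucleotidases degrade it, CD39 (Entpd1) to AMP and CD73 (Nt5e) to adenosine, which acts in turn on adenosine receptors. Acute P2X7 activation is best known for potassium efflux and release of mature IL-1β from cells that were primed beforehand. The cultures here received no priming stimulus.

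The 9 ATP cultures came from 3 culture plates with 3 cultures each. On plate MG160831 all 3 were in Middle wells, on plate MG160901 all 3 were in B_Edge wells, and on plate MGm160926A 1 was in an L_Edge well and 2 were in Middle wells. The 3 untreated cultures of plate MG160901 were in T_Edge and Corner wells, so that on this plate the treatment and the side of the plate cannot be told apart. Plates MG160831 and MG160901 held cells of lot Sciencell_March15 and plate MGm160926A held cells of lot Sciencell_Feb15, so that a difference between these lots and between these plates cannot be told apart. Each plate also held untreated cultures, and in the library pool that carried the ATP libraries there were 3 untreated cultures for MG160831 (pool MG160831A2), 3 for MG160901 and 5 for MGm160926A (pool MGm160926A1). Plates without ATP cultures held further untreated ones, 10 on MGm160926B, 4 on MGm161010A and 8 on MGm161010B. Those 8 were of another lot, Sciencell_May16. Means and SDs over all untreated cultures include these plates. Depth, estimated from the value of a single read, ranged from 1.27 to 8.13 M reads with ATP and from 1.09 to 14.99 M reads in untreated cultures. In pool MGm160926A1 the ATP libraries were the shallower ones, at 1.27 to 3.16 M reads against 4.82 to 5.19 M reads, and fewer genes were detected in them (10532 to 12738 against 13701 to 14326). The share of mitochondrially encoded RNA had a median of 6.24% with ATP and 3.02% without. It was higher with ATP in MG160901 (6.24 to 7.85% against 3.78 to 3.93%), overlapped in MG160831A2 (4.63 to 9.42% against 5.08 to 11.8%) and was at 1.95 to 2.51% with ATP against 2.39 to 4.29% in MGm160926A1. The part of depth and of this share in the results was not tested. The 7 microglial markers were all detected, with a summed level of 3373 to 5505 CPM (read counts scaled to the same mapped total in each culture, not corrected for gene length) with ATP and 3551 to 9142 CPM without. Summed neutrophil markers reached at most 4.35 CPM with ATP and 9.19 CPM without, and T and B cell markers at most 7.02 and 6.79 CPM. Fibroblast and mural cell markers were present in both groups, at 26.4 to 587 CPM and 0.651 to 1281 CPM, and their part in the results was not tested.

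After 24 h of ATP the cultures had higher levels of type I interferon-response genes and of Srgn, Il1rn and Ccl9, and lower levels of genes of cell division. Among 11606 genes tested with culture plate and well position as covariates, 153 were called, meaning an adjusted p below 0.05 and a log2 fold change of at least 1, which is 1.32% of genes. Of these, 64 were higher (0.551%) and 89 lower (0.767%), and 57 of the 64 and 70 of the 89 had the same sign of difference within each of the 3 plates. The genes were called on these same cultures, so their agreement in sign is partly built in and is not separate support. With no minimum fold, 280 genes (2.41%) passed, 135 higher (1.16%) and 145 lower (1.25%). The count rested mostly on plate MGm160926A: without its cultures 7 genes were called, and with an ATP effect fitted to each plate, 902 genes (7.77%) were called on MGm160926A, 409 higher (3.52%) and 493 lower (4.25%), whereas 1 gene, which was lower, was called on MG160831 (0.00862%) and 2 genes, both higher, on MG160901 (0.0172%). Leaving out its single L_Edge ATP culture gave 67 calls and leaving out 1 of its Middle ATP cultures gave 88. Restricting the comparison to the 3 library pools that hold both groups gave 57 calls, 50 of them among the 153.

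Interferon-response genes and mitotic genes were the sets with the largest shifts, and the sequences just upstream of some of their members are shown so that the shared elements can be seen beside the values. Each is the 200 bases before the RefSeq transcription start (GRCm38.p6), 5′ to 3′ on the strand of the gene. In the first set, capitals mark GAAA followed after 2 bases by a further GAAA, on either strand, the core of the interferon-stimulated response element, where neighbouring matches may overlap. Ifit1 (chr19:34640689-34640888, plus strand), Ifit3 (chr19:34583329-34583528, plus strand) and Isg15 (chr4:156200819-156201018, minus strand) encode antiviral tetratricopeptide-repeat proteins and a ubiquitin-like modifier.
Ifit1: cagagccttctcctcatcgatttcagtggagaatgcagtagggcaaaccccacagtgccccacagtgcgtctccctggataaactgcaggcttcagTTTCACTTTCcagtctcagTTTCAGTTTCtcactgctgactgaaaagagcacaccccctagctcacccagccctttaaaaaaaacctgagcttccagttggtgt
Ifit3: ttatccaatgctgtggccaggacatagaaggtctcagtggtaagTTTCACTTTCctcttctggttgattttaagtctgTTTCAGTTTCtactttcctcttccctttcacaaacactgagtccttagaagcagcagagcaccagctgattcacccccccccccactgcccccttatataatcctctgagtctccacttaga
Isg15: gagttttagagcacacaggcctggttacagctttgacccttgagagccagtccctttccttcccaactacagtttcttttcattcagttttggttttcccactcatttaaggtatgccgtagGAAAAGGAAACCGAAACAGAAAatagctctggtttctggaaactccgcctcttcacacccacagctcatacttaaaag

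Ifit1 and Ifit3 each held 2 matches and Isg15 held 3 overlapping ones. Of the 18 interferon-response genes on the list, 14 had a promoter entry and 6 of these (42.9%) held the letters in the 250 bases before a start, whereas 3.46% of 27025 genes with an entry did. The 3 genes shown are the called members of the list that held them. Oas1a, Rsad2 and Stat2 also held them and were not called. The other called members had no match or no promoter entry. A match describes the sequence and not the use of the site.

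In the second set, capitals mark CCAAT on either strand, the box bound by NF-Y, and TTTGAA on either strand. The latter are the letters of the cell cycle homology element, marked wherever they fall. Ccnb2 (chr9:70421555-70421754, minus strand) encodes a mitotic cyclin and Top2a (chr11:99024190-99024389, minus strand) the topoisomerase that untangles chromosomes.
Ccnb2: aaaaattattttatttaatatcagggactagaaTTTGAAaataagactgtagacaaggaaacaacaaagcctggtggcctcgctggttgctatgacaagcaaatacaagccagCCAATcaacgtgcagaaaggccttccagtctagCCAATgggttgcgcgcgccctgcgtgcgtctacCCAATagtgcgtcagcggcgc
Top2a: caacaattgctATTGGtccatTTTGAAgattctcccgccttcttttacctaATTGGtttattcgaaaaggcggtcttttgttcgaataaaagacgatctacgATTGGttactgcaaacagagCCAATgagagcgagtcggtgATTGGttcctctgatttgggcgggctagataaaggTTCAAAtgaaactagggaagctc

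Ccnb2 held 3 CCAAT boxes and Top2a held 5, and TTTGAA was found 1 time and 2 times. The sequence of Plk1, which is not shown, had 1 match to the first of these elements and 0 to the second. CCAAT was in 17 of 19 proliferation genes with an entry (89.5%) and in 37.5% of all genes with one. TTTGAA was in 6 of the 19 (31.6%) and in 18.3% of all. In the last 50 bases before a start it was in 3 of the 19 (15.8%) and in 3.09% of all. Top2a was among these 3 and Ccnb2 was not, as its match lies upstream of its CCAAT boxes.

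Of the 18 type I interferon-response genes tested, 8 were called higher and 0 lower, and 13 passed with no minimum fold. Of all genes tested, 0.551% were called higher and 1.16% were higher with no minimum fold. The median log2 fold change of the list was 1.07, and that of all genes tested was -0.00095. Ifit1, on chromosome 19 (34640889 to 34650009, GRCm38), rose by 1.97 ± 0.23 (log2 fold change ± SE, limma adjusted p = 2.27e-07), Ifit3 by 1.68 ± 0.26 (adjusted p = 3.93e-05), the OAS-like gene Oasl2 by 1.56 ± 0.29 (adjusted p = 0.000692) and Isg15 by 1.43 ± 0.30 (adjusted p = 0.00328). The other called members were Oasl1, the RNA sensor Ifih1, Mx1 and the ISG15 protease Usp18, which rose by 1.12 to 1.20. RefSeq lists Mx1 as a transcribed pseudogene. Stat2, which carries the interferon signal to the nucleus, rose by 0.95 ± 0.22 (adjusted p = 0.00695), below the minimum fold. Outside the list, the interferon-inducible genes Rtp4 (2.22 ± 0.34, adjusted p = 3.35e-05), Ifitm3 (1.41 ± 0.21, adjusted p = 1.78e-05), Oas2 (1.53 ± 0.40, adjusted p = 0.0244), Oas1g (1.52 ± 0.44, adjusted p = 0.0451) and Ddx60 (1.41 ± 0.35, adjusted p = 0.0152) were among the 15 largest rises. Oas1g has near-identical neighbours, so its value is uncertain.

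The size of this rise differed between plates. Ifit1 was at 646, 794 and 805 CPM in the ATP cultures of pool MGm160926A1 and at 60.4, 67.8, 80.3, 89.9 and 91.8 CPM in the untreated ones. In pool MG160901 it was at 55.3, 68.1 and 190 CPM with ATP and at 13.8, 19.5 and 24.8 CPM without. In pool MG160831A2 it was at 19.8, 23.2 and 32.3 CPM with ATP and at 11.8, 18.2 and 24.0 CPM without. The groups were thus apart in the first of these pools and in the second, and overlapped in the third.

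Rtp4, which encodes a chaperone of receptor transport, was at 316 to 327 CPM in the 3 ATP cultures of MGm160926A1 and at 15.8 to 31.7 CPM in its untreated ones. In MG160901 it was at 30.2 to 39.9 CPM with ATP and 12.9 to 21.3 CPM without, and in MG160831A2 at 23.4 to 52.1 and 13.3 to 24.7 CPM. Fitted separately, the log2 fold changes on MG160831, MG160901 and MGm160926A were 0.34 ± 0.30, 2.19 ± 0.33 and 3.20 ± 0.27 for Ifit1, 0.75 ± 0.46, 0.99 ± 0.50 and 4.24 ± 0.42 for Rtp4, and 0.02 ± 0.43, 0.77 ± 0.47 and 3.04 ± 0.39 for Isg15. Equal effects on the 3 plates were tested with a limma F test, chosen after the data were seen. They were rejected at an adjusted p below 0.05 for 65 genes (0.56%), among them 7 of the 18 list members. The adjusted p of this F test was 0.000139 for Ifit1, 0.000626 for Rtp4, 0.00544 for Isg15 and 5.03e-05 for Oasl2.

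**Figure D1:**
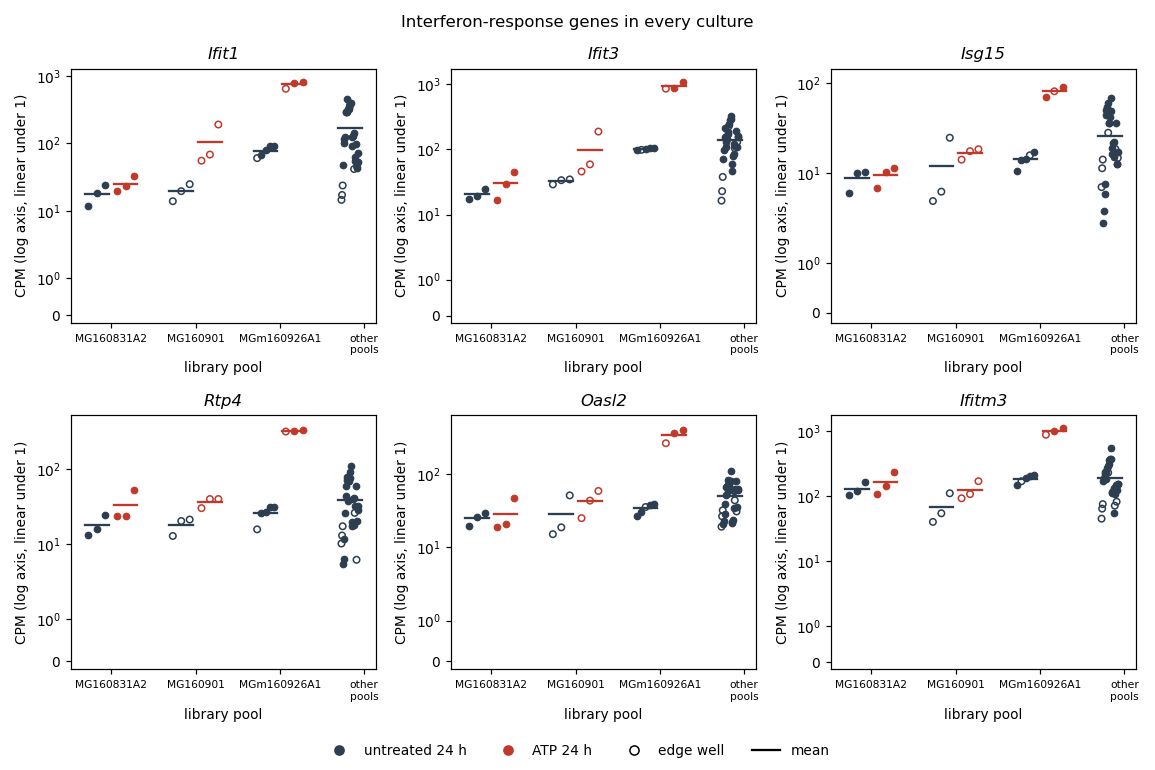
CPM of 6 interferon-response genes (log axis, linear below 1) in every untreated (dark) and ATP (red) culture at 24 h, by library pool, with open circles for edge wells and lines for means. The ATP cultures of pool MGm160926A1 lie above all untreated cultures of that pool for each gene, with Ifit1 at 646 to 805 CPM against 60.4 to 91.8 CPM, and in pool MG160831A2 the 2 groups of Ifit1 overlap.

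Within pool MGm160926A1, every ATP culture was above every untreated culture for 17 of the 18 list members, where 4.08% of all genes showed this. The same held for 7 of 18 in pool MG160901 (8.6% of all genes) and 1 of 18 in pool MG160831A2 (6.57%). The median effect on the list was 0.03 on MG160831, 0.73 on MG160901 and 2.08 on MGm160926A. Untreated cultures also differed widely, with Ifit1 from 11.8 to 448 CPM (median 85.1), and the highest of them, at 293 to 448 CPM, were all on plate MGm160926B, which held no ATP culture of this time. With no covariates, 0 of the 18 members were called, and Ifit1 was higher by 0.54.

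**Figure D2:**
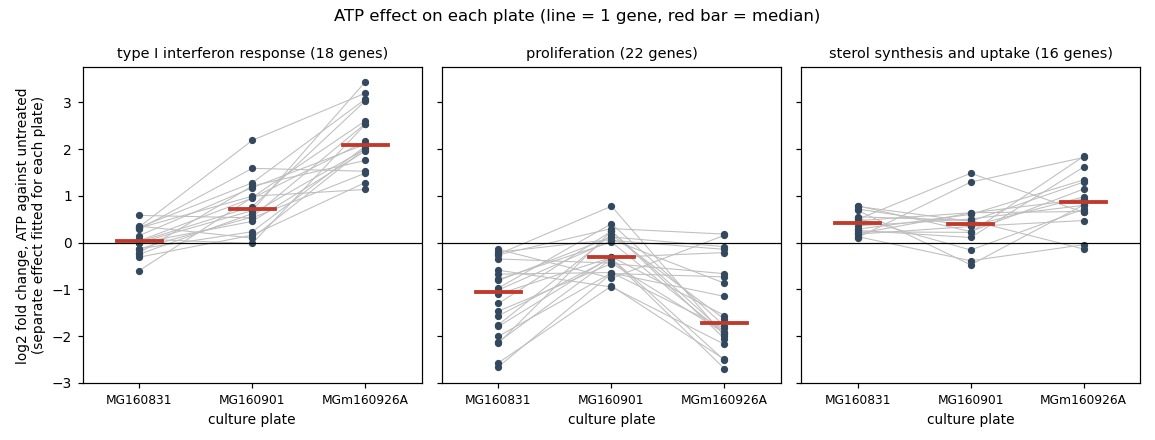
Log2 fold change of ATP against untreated cultures, fitted separately on each of 3 plates (x axis), for the tested genes of 3 lists. Each grey line is 1 gene and each red bar the list median, which was 0.03, 0.73 and 2.08 for interferon response, -1.06, -0.31 and -1.71 for proliferation and 0.41, 0.40 and 0.87 for sterol synthesis and uptake. The fit on MG160831 also uses 3 untreated edge wells of pool MG160831A1.

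Genes of cell division were lower with ATP. Of 22 proliferation genes tested, 11 were called lower and 0 higher, 21 had a negative estimate, and the list median was -1.09. Of all genes tested, 0.767% were called lower. By plate, 0 of 22 had a positive estimate on MG160831, 10 on MG160901 and 2 on MGm160926A. The fit on MG160831 also uses 3 untreated edge wells of pool MG160831A1 and so depends on the edge term. Within pool MG160831A2, where all wells were Middle wells, Mcm5 and Mcm2 differed by 0.24 and 0.06, against fitted values of -0.35 and -0.79. The other called members were lower with ATP in that pool, from -0.22 for Aurkb to -2.02 for Cenpf. The mitotic cyclins Ccnb2 and Ccnb1 fell by 2.11 ± 0.36 (adjusted p = 0.000186) and 1.89 ± 0.37 (adjusted p = 0.00132), the mitotic kinase Plk1 by 1.48 ± 0.34 (adjusted p = 0.00671), the proliferation antigen gene Mki67 by 1.62 ± 0.34 (adjusted p = 0.00335) and Top2a by 1.31 ± 0.28 (adjusted p = 0.00337). The other called members were Ccna2, Aurkb, Birc5, Cenpf and the replication helicase genes Mcm2 and Mcm5, which fell by 1.01 to 1.36. Pcna, the replication clamp, was not called (0.06). Apart from Ccnb2, Ccnb1 and Mki67, the 15 largest falls included the spindle and kinetochore genes Ckap2l (fell by 2.18 ± 0.36, adjusted p = 9.67e-05), Knstrn (fell by 2.13 ± 0.35, adjusted p = 0.000119) and Nuf2 (fell by 1.81 ± 0.37, adjusted p = 0.00291) and the cytokinesis genes Anln (fell by 1.93 ± 0.31, adjusted p = 6.31e-05), Iqgap3 and Kif23. The condensin gene Ncapd2, the histone gene H2afx, the lamin gene Lmnb1 and the mitotic regulator Fbxo5 were also among them, as were Timm23, of mitochondrial import, and Gm15417.

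Ccnb2, on chromosome 9 (70407689 to 70421554), was at 20.2, 22.8 and 39.2 CPM in the ATP cultures of pool MG160831A2, where all wells of both groups were Middle wells, and at 70.4, 84.8 and 95.9 CPM in the untreated ones. In pool MG160901 it was at 21.1, 26.9 and 28.7 CPM with ATP and at 30.2, 53.7 and 73.2 CPM without. In pool MGm160926A1 it was listed at 0 in the L_Edge culture and at 9.82 and 10.2 CPM in the others with ATP, and at 14.9, 67.5, 92.1, 110 and 164 CPM without. The groups did not overlap in any of the 3 pools, which held for 1 of the 22 list members, and 0.121% of all genes were below untreated cultures in this way. In single pools, every ATP culture was below every untreated one for 5 of 22 members in MG160831A2 (5.34% of all genes), 2 of 22 in MG160901 (7.09%) and 4 of 22 in MGm160926A1 (5.95%).

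Top2a was at 108, 118 and 142 CPM with ATP and at 227, 310 and 315 CPM without in MG160831A2. In MGm160926A1 it was at 148 and 206 CPM in the Middle ATP wells and at 314 to 564 CPM in the Middle untreated wells, and the edge wells held 31.95 CPM with ATP and 69.3 CPM without. In MG160901, where all wells were at an edge, it was at 73.4 to 86.5 CPM with ATP and at 44.1 to 247 CPM without. Plk1 was at 12.2 to 22.6 CPM with ATP and 11.1 to 19.6 CPM without in that pool, so that the groups overlapped there for both genes.

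Well position moved with this result. In the fit, edge wells had lower levels than Middle wells for 22 of 22 proliferation genes, with a median log2 difference of -1.56, and 17 of 22 were called lower at the edge, against 1.27% of all genes. Among untreated cultures the median of Top2a was 100.0 CPM in edge wells and 404 CPM in Middle wells. ATP cultures were at an edge in 4 of 9 cases and untreated cultures in 10 of 40. With the plate as the only covariate 0 of the 22 were called, and with the library pool in place of the plate 2 were. In Middle wells alone (5 ATP and 30 untreated cultures, a comparison added after the data were seen) 7 were called, with Ccnb2 lower by 1.91 and Top2a by 1.21.

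**Figure D3:**
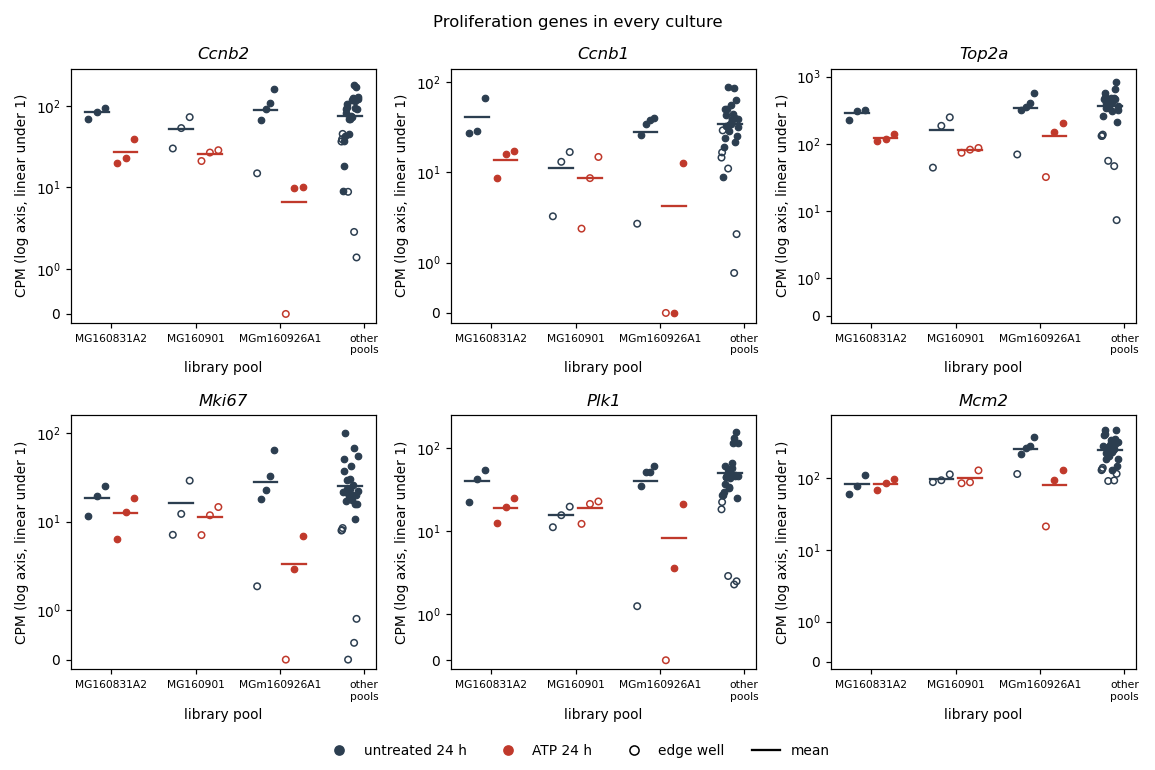
CPM of 6 proliferation genes (log axis, linear below 1) in every untreated (dark) and ATP (red) culture at 24 h, by library pool, with open circles for edge wells and lines for means. Ccnb2 in ATP cultures lies below untreated cultures in each of the 3 pools, and open circles lie low in both groups, as with Top2a at 31.95 and 69.3 CPM in the edge wells of MGm160926A1.

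A further set of genes differed in the same direction on each plate. Srgn, which encodes the granule proteoglycan serglycin (chromosome 10, 62493833 to 62527445), was at 249 ± 41.0 CPM with ATP (SD, n = 9) and 64.3 ± 28.1 CPM without (n = 40), a rise of 1.95 ± 0.24 (adjusted p = 2.27e-07). It was at 202, 205 and 228 CPM against 76.9, 105 and 122 CPM in MG160831A2. It was at 265, 290 and 327 CPM against 62.1, 117 and 137 CPM in MG160901. In MGm160926A1 it was at 218, 249 and 256 CPM against 37.3 to 62.0 CPM. No ATP culture overlapped with any of the 40 untreated cultures, whose highest value was 137 CPM. Fitted by plate, the log2 fold change of Srgn was 1.15 ± 0.38 on MG160831, 1.54 ± 0.42 on MG160901 and 2.89 ± 0.35 on MGm160926A.

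Il1rn, the secreted antagonist of the IL-1 receptor (chromosome 2, 24336860 to 24351491), was at 71.9 ± 13.6 CPM with ATP and 21.7 ± 10.2 CPM without, a rise of 1.69 ± 0.23 (adjusted p = 3.18e-06). Its lowest ATP culture was at 58.1 CPM and its highest untreated culture at 51.1 CPM, so the groups were also apart. Its rise was larger on MGm160926A (2.91 ± 0.30) than on MG160831 (0.76 ± 0.33) and MG160901 (1.00 ± 0.37), with an adjusted p of 0.0087 for unequal effects. It was the only one of 16 inflammatory cytokines and enzymes tested to be called. Of all genes tested, 0.551% were called higher.

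The CC chemokine Ccl9 rose by 1.37 ± 0.17 (137 ± 53.1 against 57.3 ± 15.7 CPM, adjusted p = 2.27e-07). Its neighbour Ccl6, named after its values were seen, rose by 0.97 ± 0.12 (adjusted p = 5.34e-07), below the minimum fold. The platelet factor gene Pf4, also a marker of perivascular macrophages, rose by 1.06 ± 0.16 (adjusted p = 1.94e-05), whereas Cbr2, another marker of that list, fell by 1.31 ± 0.32 (adjusted p = 0.0146) and the remaining tested members, F13a1 and Mrc1, were not called. The summed level of these 6 markers was 278 to 580 CPM with ATP and 145 to 470 CPM without, and its part in the result was not tested. S100a4, a calcium-binding protein of the monocyte marker list, rose by 1.01 ± 0.27 (adjusted p = 0.0261), and the other 4 markers of that list had a median below 1 CPM over all cultures. The summed level of the monocyte markers was 13.4 to 166 CPM with ATP and 7.15 to 87.2 CPM without, and its part in the result was not tested. Among markers of dendritic cells (2 tested), astrocytes (3), the oligodendrocyte lineage (4), neurons (2), endothelial cells (2) and fibroblasts and mural cells (4), 0 were called by limma, with 1, 1, 0, 0, 1 and 1 at an unadjusted p below 0.05.

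Other large rises were seen for Cytip (1.67 ± 0.43), which binds the integrin regulator cytohesin, for Crybg3 (1.52 ± 0.37), for the G protein-coupled receptor Gpr35 (1.39 ± 0.40) and for Gm8995 (1.65 ± 0.43) and BC005561 (1.42 ± 0.32), with adjusted p from 0.00664 to 0.0449. Crybg3 rose by a similar amount on each plate (1.43 ± 0.67, 1.56 ± 0.74 and 1.58 ± 0.61), and its ATP and untreated cultures did not overlap in any of the 3 pools.

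Of all genes tested, 20 (0.172%) had every ATP culture above every untreated culture of its own pool in all 3 pools, and 14 (0.121%) had every one below. Srgn, Il1rn, Pf4, Ccl6 and Crybg3 were among the 20, with the C-type lectin Clec4d (higher by 0.75 ± 0.16), the scavenger receptor Msr1 (0.44 ± 0.10), the lipid droplet coat gene Plin2 (0.65 ± 0.12), the transglutaminase Tgm2 (0.69 ± 0.15) and Txnip, the thioredoxin inhibitor and glucose-responsive arrestin (0.81 ± 0.12, adjusted p = 2.24e-05). Txnip stood at 638 ± 268 CPM with ATP and 255 ± 118 CPM without. Entpd1, Ccnb2 and Ckap2l were among the 14. Clec4d, Msr1, Plin2, Tgm2 and Txnip were named after their values were seen.

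**Figure D4:**
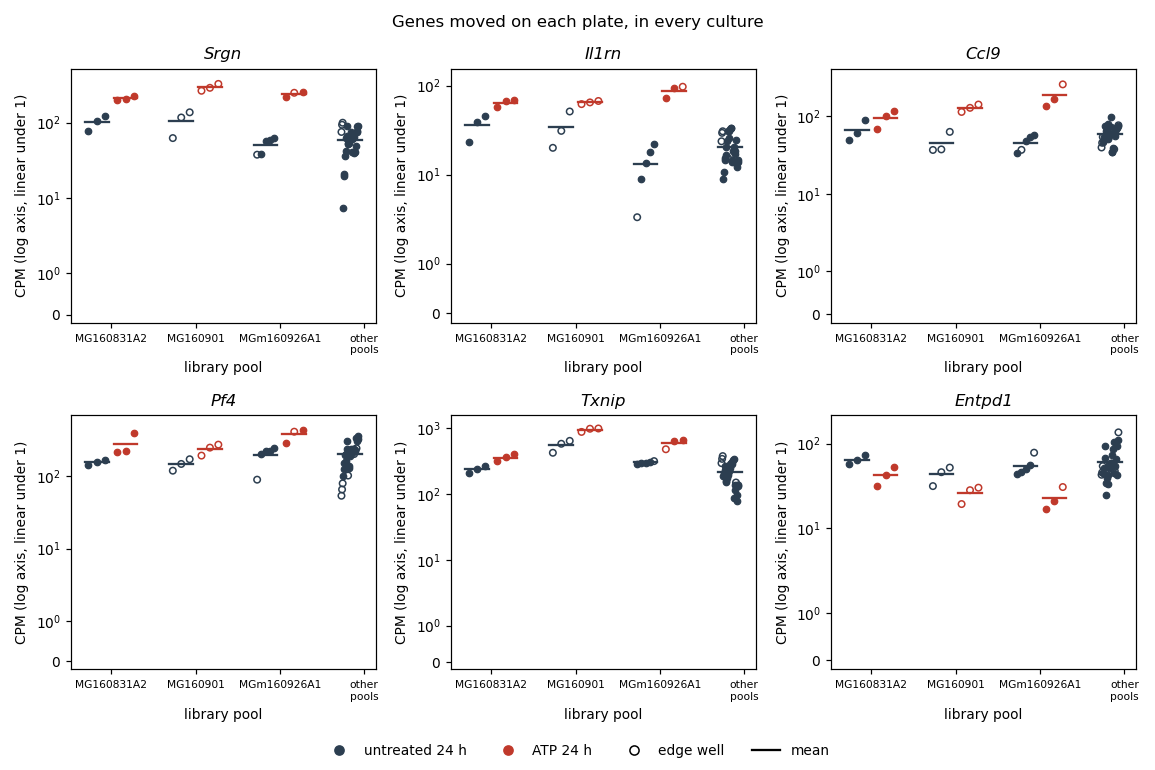
CPM of Srgn, Il1rn, Ccl9, Pf4, Txnip and Entpd1 (log axis, linear below 1) in every untreated (dark) and ATP (red) culture at 24 h, by library pool, with open circles for edge wells and lines for means. Srgn in all 9 ATP cultures lies at 202 to 327 CPM and above the 137 CPM of the highest untreated culture, and Entpd1 lies below untreated cultures in each of the 3 pools.

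Several genes of sterol synthesis and uptake were higher with ATP. Of 16 tested, 15 had a positive estimate, 1 was called and 5 passed with no minimum fold, with a list median of 0.67. Over all genes, 5792 of 11606 had a positive estimate, 0.551% were called higher and 1.16% were higher with no minimum fold. Idi1, an isomerase of the mevalonate pathway, rose by 1.11 ± 0.27 (adjusted p = 0.0135). The sterol demethylase gene Cyp51 rose by 0.79 ± 0.19 (adjusted p = 0.0152), Fdps by 0.73 ± 0.20 (adjusted p = 0.0371) and Msmo1 by 0.60 ± 0.15 (adjusted p = 0.0173). In each of the 3 pools Fdps and Msmo1 were higher in every ATP culture than in every untreated one. Of 9 genes of cholesterol efflux and LXR response, 2 passed with no minimum fold, and both were lower, as were 1.25% of all genes. Abcg1, which exports cholesterol, fell by 0.90 ± 0.22 (adjusted p = 0.0115), and Apoe, the lipoprotein that accepts it, fell by 0.52 ± 0.13 (adjusted p = 0.021).

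Genes for the receptors of ATP and adenosine did not pass the test. Of 15 P2 receptor genes, 8 passed the filter on low values and 0 were called or passed with no minimum fold, while 3 had an unadjusted p below 0.05 (limma). P2rx7 was at 120 ± 21.2 CPM with ATP and 128 ± 48.3 CPM without, a log2 difference of 0.18 with a 95% confidence interval of -0.13 to 0.50. P2rx4 was at 72.3 ± 12.4 and 88.8 ± 21.5 CPM (-0.26, interval -0.56 to 0.03). The UDP receptor P2ry6 was at 39.3 ± 12.3 and 31.3 ± 15.99 CPM (0.16, interval -0.26 to 0.58), and P2ry12, the ADP receptor of resting microglia, was low in both groups at 4.90 ± 4.29 and 4.51 ± 3.39 CPM (-0.51, interval -1.20 to 0.18). For P2rx7 and P2ry12 the fitted difference and the difference of the means have opposite signs, since the means include plates without ATP cultures and are not adjusted, and with no covariates the differences were -0.010 and 0.020. The intervals of P2rx7, P2rx4 and P2ry6, taken over all plates, leave out a log2 change of 1 in either direction, and that of P2ry12 does not leave out a fall of this size. Fitted by plate, P2rx7 was at -0.34 ± 0.26 on MG160831, 0.08 ± 0.29 on MG160901 and 0.69 ± 0.24 on MGm160926A (limma F test of unequal effects, adjusted p = 0.358). In pool MGm160926A1 every ATP culture was above every untreated one for P2rx7. Of 4 adenosine receptor genes only Adora3 passed the filter, and it was not called (-0.49). Adora2a and Adora2b, with means of 0.197 and 1.55 CPM with ATP and 0.432 and 1.58 CPM without, were too low to be tested, as was Nt5e at 1.40 and 0.414 CPM.

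Among 10 genes tested that degrade nucleotides or handle nucleosides, 0 were called and 2 passed with no minimum fold, and both were lower, as were 1.25% of all genes. Entpd1 was at 30.3 ± 11.4 CPM with ATP and 59.2 ± 22.9 CPM without and fell by 0.85 ± 0.19 (adjusted p = 0.00701). It was at 31.9, 42.1 and 52.8 CPM against 57.0, 64.2 and 73.1 CPM in MG160831A2, at 19.3, 28.2 and 30.2 CPM against 31.5, 46.0 and 52.1 CPM in MG160901, and at 16.7, 20.9 and 30.7 CPM against 44.2 to 78.2 CPM in MGm160926A1. Each pool thus showed every ATP culture below every untreated one. The nucleoside transporter gene Slc29a1 fell by 0.72 ± 0.20 (adjusted p = 0.0359), and its effect differed between plates (adjusted p = 0.0276), with -1.72 ± 0.27 on MGm160926A and -0.03 ± 0.30 and -0.08 ± 0.33 on the others.

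**Figure D5:**
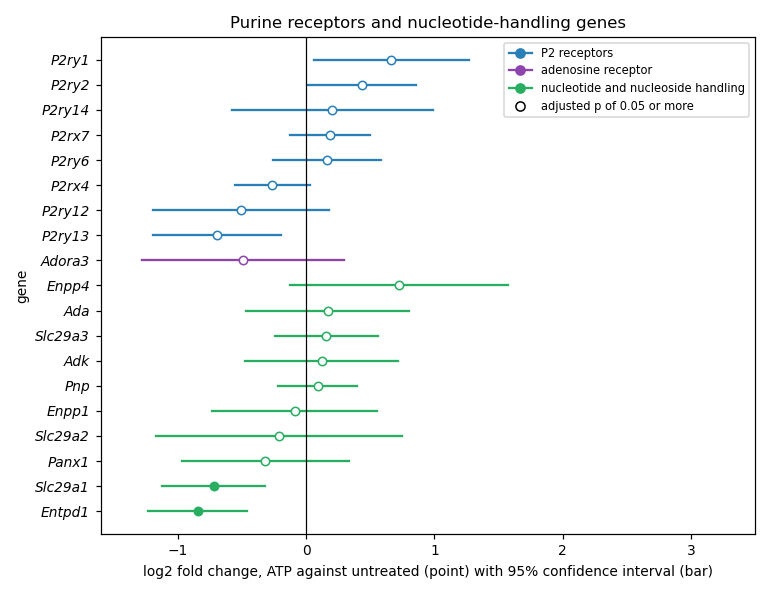
Log2 fold change of ATP against untreated cultures at 24 h (x axis) for the tested P2 receptor, adenosine receptor and nucleotide- or nucleoside-handling genes, with bars for the 95% confidence interval and filled points for an adjusted p below 0.05. Only Entpd1 and Slc29a1 are filled, at -0.85 and -0.72, and P2rx7 lies at 0.18.

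Few inflammasome and cytokine genes passed the test. Of 14 inflammasome and pyroptosis genes, 0 were called and 1, Txnip, passed with no minimum fold and was higher, as were 1.16% of all genes. The list median was 0.06, with 4 genes at an unadjusted p below 0.05 by limma. Nlrp3 was at 22.8 ± 11.4 CPM with ATP and 26.9 ± 15.3 CPM without (0.19, interval -0.52 to 0.89, and -0.11 with no covariates). Il1b was at 3.49 ± 2.64 CPM with ATP and 18.2 ± 19.6 CPM without, was listed at 0 in all 3 ATP cultures of MGm160926A1 and in 4 of the 5 untreated ones there, and was not called (-0.70, interval -1.47 to 0.06). Fitted by plate it was lower on MGm160926A (-1.78 ± 0.59, adjusted p = 0.0458), whose untreated cultures include a second pool, and was at -0.16 and 0.25 on MG160831 and MG160901. Its sign depended on the covariates, at 0.07 with the library pool in place of the plate. Tnf was at 51.8 ± 20.6 and 128 ± 101 CPM (-0.16, interval -0.59 to 0.26), where the untreated mean includes plates without ATP cultures. Of 12 NF-kB feedback genes 0 were called, with 3 at an unadjusted p below 0.05 and a list median of -0.18.

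Of 18 homeostatic microglial genes tested, 1 was called, Fcrls, an Fc receptor-like gene that marks microglia, which fell by 1.11 ± 0.19 (limma adjusted p = 0.000186). With no minimum fold 2 of the 18 passed, both lower. Of all genes tested, 0.767% were called lower. With no minimum fold, 1.16% of all genes were higher and 1.25% lower. Cx3cr1, the fractalkine receptor, was at 502 ± 106 and 366 ± 103 CPM (0.22, interval -0.16 to 0.61), and Tmem119 at 12.9 ± 15.01 and 19.3 ± 16.1 CPM (0.24, interval -0.34 to 0.82, and -0.66 with no covariates). Of 19 disease-associated microglial genes 0 were called, while the cathepsin gene Ctsl rose by 0.63 ± 0.15 (adjusted p = 0.0105) and Apoe fell as given above. Of 17 genes of glycolysis and hypoxia 0 were called, and the glycolytic genes Eno1 (0.53 ± 0.12, adjusted p = 0.00437) and Pkm (0.41 ± 0.11, adjusted p = 0.0323) passed with no minimum fold.

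No member was called in the lists of phagocytosis and scavenger receptors (16 tested) or lysosome (22 tested), with 5 and 8 genes at an unadjusted p below 0.05. With no minimum fold, 2 of the first list passed, both higher, and 3 of the second, 2 higher and 1 lower. Msr1 and Ctsl were among these. Of all genes tested, 1.16% were higher and 1.25% lower with no minimum fold. No member was called or passed with no minimum fold among NRF2 targets (17 tested, 7 at an unadjusted p below 0.05), cAMP response (16 and 3), integrated stress and unfolded protein response (18 and 3), mitochondrially encoded genes (12 and 3), p53 targets (11 and 2), IL4 and IL13 response (8 and 2), heat shock (12 and 1), ion channels (19 and 1), calcium-NFAT and EGR response (15 and 1), nuclear respiratory chain (18 and 1) and MHC class II (4 and 0). Over all genes, 1624 of 11606 had an unadjusted p below 0.05 by limma.

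Set against other transmitter-like stimuli at 24 h, in a fit of 374 cultures, ATP differed at 305 of 14208 genes (2.15%) from nicotine (1000 uM, 8 cultures), at 414 (2.91%) from dopamine (100 uM, 9 cultures) and at 11 (0.0774%) from glutamate (500 uM, 7 cultures). These comparisons share the ATP cultures, and the doses of dopamine and glutamate were lower than that of ATP. On plate MGm160926A the nicotine libraries were in pool MGm160926A2 and the ATP libraries in pool MGm160926A1. On plate MG160831 the dopamine and glutamate libraries were in pool MG160831A1 and the ATP libraries in pool MG160831A2. The fit has no term for the library pool, so there the stimulus and the pool cannot be told apart. Of the genes that differed, 166 (1.17%) were higher and 139 (0.978%) lower with ATP than with nicotine, 330 (2.32%) and 84 (0.591%) against dopamine, and 8 (0.0563%) and 3 (0.0211%) against glutamate. The glutamate count ranged from 3 to 76 with the model, the pseudocount and the filter.

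Against glutamate, among called genes with a mean of at least 5 CPM in the higher group, the largest positive differences were at Srgn (1.65 ± 0.27, adjusted p = 3.26e-05), Ccl9 (1.53 ± 0.21, adjusted p = 5.22e-08) and Il1rn (1.47 ± 0.31, adjusted p = 0.00622), and the largest negative ones at Ccnb1 (-2.26 ± 0.45, adjusted p = 0.00197), Anln (-1.99 ± 0.43, adjusted p = 0.00668) and Tmpo, of the nuclear lamina (-1.29 ± 0.30, adjusted p = 0.0198). In pool MGm160926A1 Srgn was at 23.2, 35.3 and 53.9 CPM with glutamate, and in pool MG160901 it was at 100.2 and 137 CPM, in B_Edge wells as for ATP. The highest of all 7 glutamate cultures was 137 CPM, below every ATP culture. Ifit1 was at 65.5, 70.0 and 102 CPM with glutamate in MGm160926A1, also below every ATP culture of that pool, and its fitted difference was not called (1.48 ± 0.38, adjusted p = 0.0605).

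Against dopamine, by the same rule, the largest positive differences were at a pair of clone-named transcripts (3.29 ± 0.78 and 2.48 ± 0.56) and at Cx3cr1 (2.55 ± 0.35, adjusted p = 1.95e-08), which was at 139 ± 105 CPM with dopamine. The stress genes Hspa1a (-2.29 ± 0.50, adjusted p = 0.000793) and Osgin1 (-2.11 ± 0.42, adjusted p = 0.000199) and the small nuclear RNA Rn7sk were lower with ATP. Against untreated cultures the pair of transcripts (2.31 and 0.72), Cx3cr1 (0.22), Hspa1a (0.08) and Osgin1 (-0.55) were not called. Rn7sk fell below the filter in that comparison. Ifit1 was higher with ATP than with dopamine by 2.05 ± 0.35 (adjusted p = 1.11e-05), and Srgn by 1.11 ± 0.26 (adjusted p = 0.00184).

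Against nicotine, the circadian factor Dbp (4.12 ± 0.60, adjusted p = 2.54e-08), Rtp4 (2.45 ± 0.43, adjusted p = 8.59e-06) and Zfp618 (2.29 ± 0.48, adjusted p = 0.000341) were higher with ATP. Dbp was at 20.7 CPM with ATP and 0.295 CPM with nicotine. Neither Dbp (1.17 ± 0.59, limma adjusted p = 0.365) nor Zfp618 (0.57 ± 0.38, limma adjusted p = 0.522) was called against untreated cultures. The adhesion gene Amica1 (-4.56 ± 0.33, adjusted p = 1.32e-31), the hyaluronan receptor gene Lyve1 (-4.02 ± 0.24, adjusted p = 1.57e-43) and the mTOR inhibitor gene Ddit4 (-3.44 ± 0.32, adjusted p = 3.47e-20) were lower with ATP than with nicotine. Their means were 1.51, 0.412 and 0.150 CPM with ATP and 58.2, 30.8 and 14.3 CPM with nicotine. All of them fell below the filter in the ATP and untreated cultures, so they were not tested against untreated cultures. Ccl9 and Pf4, which rose with ATP against untreated cultures, were lower with ATP than with nicotine by 1.46 ± 0.20 and 1.51 ± 0.28 on the log2 scale, at 371 ± 98.0 and 822 ± 260 CPM with nicotine. Of the 11 proliferation genes called lower against untreated cultures, 0 were called against nicotine by limma and 0 had an unadjusted p below 0.05, as with Top2a at 111 ± 50.6 CPM with ATP and 102 ± 39.6 CPM with nicotine (-0.04, interval -0.82 to 0.74) and Ccnb1 at 8.88 ± 6.74 and 6.22 ± 4.76 CPM (0.14, interval -0.72 to 0.99). Pcna was higher with ATP than with nicotine (1.15 ± 0.20).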

How the data were processed

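Primary neonatal mouse microglia were profiled by RNA sequencing. The deposited table holds CPM values, which the authors made with Salmon 0.7.1 on Ensembl transcripts by summing reads per gene and dividing by the mapped total, without length correction. The study calls this unit TPM, but with no length term it is CPM as described, and it is called that here. The submitters' processing notes name the build mm8, and the table has no coordinates, so gene positions are RefSeq's on GRCm38.p6 by symbol. The table lists 45581 genes in 784 columns, of which 379 were matched to labels and 405 were not used. The 49 columns compared each summed to between 997849 and 999834, none were identical, and the values did not give whole reads, so no count test was run. Depth is the inverse of the most common positive value, and counting error alone limits low genes.

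Values were analysed as log2(CPM + 1), which understates changes of low genes, for genes above 5 CPM in at least 4 cultures, with limma 3.58.1 (R 4.3.3, trended empirical Bayes) and Benjamini-Hochberg adjustment. A gene was called at an adjusted p below 0.05 and a log2 fold change of at least 1. Covariates were culture plate and well position. Well Type was entered as edge or Middle because no untreated 24 h culture was in a B_Edge well, and its full levels are an alternative. The labels do not say whether the cultures of a plate were independent preparations, so p-values measure the spread between wells, which may be technical. Contrasts with nicotine, dopamine and glutamate came from a single fit of the 374 mapped 24 h cultures.

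Genes named were the 15 largest rises and 15 largest falls with a mean of at least 5 CPM in the higher group and the same sign on every plate, called members of gene lists, a fixed set of purinergic, cytokine and microglial genes, and 3 per direction for each contrast. The comparison and the lists were chosen with earlier results of these data known. The plate-wise test and the comparisons in Middle wells were added after the data were seen. The model was tested on simulated data. Promoters were the 250 bases before each RefSeq start. Python 3.11.15 and matplotlib 3.10.9 drew the figures. Some members of the gene lists are counted but not reported here by name.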

Additional observations from a re-analysis of the deposited data

Results flagged for a closer look

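The ATP effect differed between the 3 plates for 9 of the 59 named genes tested, by the limma F test added after the data were seen. The adjusted p was 5.03e-05 for Oasl2, 0.000139 for Ifit1, 0.000626 for Rtp4, 0.00421 for Ifit3, 0.00544 for Isg15, 0.0087 for Il1rn, 0.0108 for Ifitm3, 0.0208 for Usp18 and 0.0211 for Oas2. In each the effect was largest on plate MGm160926A.

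Among the 9 ATP cultures, 1 culture stood far above the others for 5 of 59 genes, by a Dixon outlier cutoff applied to CPM. The rate of about 1 gene in 20 for this cutoff assumes normal values from a single population. These cultures came from different plates, and the effect on Oas2 differed between them, so the number given by chance alone is not known here. Oas2 was at 71.0 CPM, Oas1g at 38.8 CPM, Aurkb at 12.5 CPM, P2ry6 at 69.4 CPM and Adora3 at 7.98 CPM in its highest culture.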

How the results depend on the processing

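The 153 calls between ATP and untreated cultures became 57 with log2(CPM + 5), 254 with no covariates, 93 with the culture plate alone, 74 with library pool and well position, 57 in library pools with both groups, 75 with array weights, 76 in Middle wells, 33 in Middle wells of those pools and 7 without plate MGm160926A. Leaving out each ATP culture in turn gave 67 to 164. With no minimum fold, 280 became 468 with no covariates. The 8 interferon-response calls became 5 with log2(CPM + 5), 0 with no covariates, 2 with the cell lot, 3 in the shared fit, 2 with array weights, 13 with every well type level, 1 in Middle wells of the shared pools, 15 without plate MG160831 and 1 without plate MGm160926A, and 6 to 13 without single ATP cultures. The 11 proliferation calls became 7 with log2(CPM + 5), no filter, no covariates, only the ATP plates, every well type level or Middle wells, 0 with the plate alone, 2 with the library pool or in the shared pools, 3 in Middle wells of those pools, 6 without plate MG160831 and 1 without plate MGm160926A, and 5 to 11 without single ATP cultures. The cause of these shifts was not tested.

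The nicotine count of 305 became 95 with no covariates, 198 with the library pool and 175 with log2(CPM + 5). The dopamine count of 414 became 270 in a fit of untreated cultures and the stimuli compared, 145 with no covariates and 152 with log2(CPM + 5). The glutamate count of 11 became 53, 3 and 20 under the same settings, 24 with the library pool, 76 with no filter and 18 with median scaling. The 65 genes with unequal plate effects became 126 with log2(CPM + 0.1) and 191 with no filter.

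Over 59 named genes and 29 settings, 1294 results kept their direction and side of the threshold, 3 newly passed, 17 changed sign, 5 gave no value because the gene fell below the filter, and the rest kept their direction but no longer passed. The changes of sign were Oasl1 (-0.17), P2rx7 (-0.010), P2ry12 (0.020), Nlrp3 (-0.11) and Tmem119 (-0.66) with no covariates, P2rx7 (-0.037) and Nlrp3 (-0.18) with the cell lot, P2rx7 (-0.021) with array weights, Nlrp3 with every well type level (-0.17), in Middle wells (-0.26) and without plate MG160901 (-0.33), Il1b (0.073) with the library pool and in the shared pools, P2rx7 (-0.14), Il1b (0.12) and Tmem119 (-0.035) without plate MGm160926A, and Tnf (0.049) without plate MG160831. No paired analysis was possible because the library titles carry no replicate numbers that tie cultures of the groups to each other. Plates and pools that hold both groups were used as covariates or as limits on the comparison. The ATP libraries of pool MGm160926A1, at 1.27 to 3.16 M reads, limit what can be said of its lowest genes.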

Other observations

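ATP was also given for 4 h, at the same dose of 1000 uM, to 4 cultures on plate MGm160926B and 1 on plate MGm161010A. Untreated 4 h cultures were not analysed here, so these values have no test and are set beside untreated 24 h cultures of the same plates, which differ in time. Il1rn was at 27.3, 259, 336 and 354 CPM on MGm160926B and 265 CPM on MGm161010A, where untreated 24 h cultures held 15.3 to 33.7 and 13.9 to 20.6 CPM. Tgm2 was at 1454 to 2975 CPM and 7198 CPM, against 449 to 892 and 936 to 1038 CPM. Srgn was at 106 to 151 CPM and 108 CPM, against 41.3 to 91.0 and 39.95 to 64.4 CPM.

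Adora2b, the low-affinity adenosine receptor that was too low to be tested at 24 h, was at 8.47, 12.6, 13.1 and 18.5 CPM in the 4 h cultures of MGm160926B, against 0 to 7.94 CPM in its untreated 24 h cultures. In the 4 h culture of MGm161010A it was at 2.22 CPM, within the 0.402 to 4.06 CPM of the untreated 24 h cultures there. Cx3cr1 was at 38.8 to 181 CPM and 43.0 CPM, against 198 to 452 and 378 to 468 CPM, whereas it was at 271 to 629 CPM after 24 h of ATP. Ifit1 at 4 h was at 294 to 375 CPM on MGm160926B and 40.6 CPM on MGm161010A, and the untreated 24 h cultures of these plates held 293 to 448 and 90.9 to 140 CPM.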
